A study of Mus musculus with 6 samples.

Results

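Wnt signalling genes were followed in whole inguinal white adipose tissue (iWAT), the subcutaneous fat of the groin, of mice with and without *Cebpa* in their adipocytes. A gene was included if its symbol was that of a numbered Wnt, Frizzled, secreted Frizzled-related protein (SFRP) or Dickkopf gene, or was *Lrp5*, *Lrp6*, *Lgr4*, *Rspo1*, *Rspo2*, *Rspo3*, *Ctnnb1*, *Axin2*, *Tcf7l1* or *Tcf7l2*, and if its mean over the libraries reached 0.1 TPM. TPM is the share of a library's transcripts that belong to a gene, corrected for transcript length and scaled to one total in every library, so that levels of different genes can be compared. By name 47 symbols matched, and 39 of them reached the minimum, out of 36144 gene symbols in all. The 39 genes were 13 Wnt ligands, 10 Frizzled receptors, 2 co-receptors, 4 SFRPs, 2 Dickkopfs, 3 R-spondins, 1 R-spondin receptor and 4 intracellular factors.

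Wnt ligands are lipid-modified secreted proteins that bind a Frizzled receptor together with the co-receptor Lrp5 or Lrp6. In the canonical branch this binding protects β-catenin, the product of *Ctnnb1*, from destruction, and β-catenin then acts with transcription factors of the TCF/LEF family on target genes such as *Axin2*. SFRPs bind the ligands, Dickkopfs bind the co-receptors, and R-spondins with their Lgr receptors keep the Wnt receptors at the cell surface. In fat, canonical Wnt signalling in precursor cells is known for holding back adipogenesis, the process in which C/EBPα, the transcription factor encoded by *Cebpa*, acts late.

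The bulk RNA-seq data came from 10-week-old female mice on the C57BL6/J background, killed in the fed state, with 3 Cebpa_fl/fl and 3 Cebpa_ASKO mice and 1 library for each mouse. All 6 mice carried 2 floxed *Cebpa* alleles. Cebpa_ASKO mice also carried the AdipoQ-Cre transgene, in which the adiponectin promoter drives Cre late in adipocyte differentiation, and Cebpa_fl/fl controls lacked it, so that Cre itself and the loss of *Cebpa* cannot be told apart. The lymph nodes of the depot had been taken out, and cells that do not express adiponectin keep *Cebpa*. All libraries have the same batch label.

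*Cebpa* itself went with the labels, at 448, 465 and 498 CPM (counts scaled to a common library size) in controls and 37.7, 45.8 and 37.2 CPM in Cebpa_ASKO. Libraries held 33141769 to 49477671 estimated counts. The 12 adipocyte markers summed to between 50327 and 70082 TPM in controls and between 15556 and 16924 TPM in Cebpa_ASKO, and in bulk tissue fewer cells of a type and less RNA per cell cannot be told apart. Several libraries stood apart in other cell types. Lymphocyte markers summed to 227 TPM in Cebpa_fl/fl 1 and to between 6.02 and 13.2 TPM in the others. The 12 fibroblast and adipocyte progenitor markers summed to 3072, 6134 and 3098 TPM in controls and to 4304, 4632 and 5860 TPM in Cebpa_ASKO, so that Cebpa_fl/fl 2 was the highest of all. Skeletal muscle markers lay apart by genotype, at between 455 and 769 TPM in controls and between 1645 and 4593 TPM in Cebpa_ASKO. Of these 12 markers edgeR called 8, all higher, where 5.23% of all genes were called. Schwann cell and nerve markers also lay apart, at 190 to 271 TPM in controls and 334 to 373 TPM in Cebpa_ASKO, with 1 of 7 called higher. Of 9 endothelial markers 8 were lower in Cebpa_ASKO and 2 were called lower.

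Because the manipulated gene encodes a DNA-binding factor, the 300 bases around the start site of each gene (250 before and 50 after, RefSeq, GRCm38.p6) were searched on both strands for the C/EBP motif TTGCNNAA. Of the 39 Wnt genes 25 had such a window, and 3 windows held a match (*Sfrp2*, *Lgr4* and *Fzd1*), or 12%, against 12.2% of the windows of all 27025 genes. *Wnt7b* and *Sfrp1* were among the genes without a window, so they were not searched. These 3 sequences are shown, as the searched Wnt genes in which a change with the loss of C/EBPα could be set beside a match. Each is the 250 bases before the start site, 5′ to 3′ on the strand of the gene, with the match in capitals. *Sfrp2* is at chr3:83766071-83766320 on the plus strand with the match 45 bases before the start, *Lgr4* at chr2:109917397-109917646 on the plus strand with the match 47 bases before it, and *Fzd1* at chr5:4758217-4758466 on the minus strand with the match 84 bases before it.
Sfrp2: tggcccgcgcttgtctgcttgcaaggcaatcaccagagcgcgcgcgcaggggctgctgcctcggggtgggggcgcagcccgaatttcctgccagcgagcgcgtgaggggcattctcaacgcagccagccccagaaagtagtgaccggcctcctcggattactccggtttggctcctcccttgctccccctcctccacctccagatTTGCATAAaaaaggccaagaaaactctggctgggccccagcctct
Lgr4: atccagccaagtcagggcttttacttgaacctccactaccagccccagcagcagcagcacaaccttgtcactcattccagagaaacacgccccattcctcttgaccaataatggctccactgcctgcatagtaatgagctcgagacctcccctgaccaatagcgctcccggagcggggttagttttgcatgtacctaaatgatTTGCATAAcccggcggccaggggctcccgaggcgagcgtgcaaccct
Fzd1: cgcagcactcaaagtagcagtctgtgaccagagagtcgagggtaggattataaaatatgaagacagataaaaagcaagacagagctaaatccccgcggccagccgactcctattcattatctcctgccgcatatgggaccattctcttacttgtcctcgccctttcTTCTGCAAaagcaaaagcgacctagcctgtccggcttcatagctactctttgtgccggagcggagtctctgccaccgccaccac
The letters TTGCATAA stand at nearly the same distance in *Sfrp2* and *Lgr4*, and in both they overlap ATTTGCAT, the octamer bound by POU factors, which was looked for after the matches were seen and is in 1.97% of all windows. In *Fzd1* the match reads on the opposite strand. None of the 3 genes passed the test of the genotypes, as given under their roles. The TCF/LEF motif CTTTGAT was in the windows of *Wnt5b* and *Wnt11*, 2 of the 25, or 8.0%, against 4.29% of all genes. A match describes letters and is not a binding site.

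Among the 39 genes levels spanned more than 3 orders of magnitude. *Ctnnb1* was the highest at a mean of 193 TPM over the 6 libraries, followed by *Sfrp2* at 48.8, *Sfrp4* at 42.7, *Fzd4* at 36.0 and *Lrp6* at 21.7 TPM. The lowest were *Fzd9* at 0.114 and *Rspo2* at 0.121 TPM, just inside the minimum, while *Dkk1* at 0.0779 TPM was just outside it. The other genes below it were *Dkk4*, *Wnt3*, *Wnt3a*, *Wnt7a*, *Wnt8a*, *Wnt8b* and *Wnt9b*. *Wnt3* and *Wnt3a*, which encode ligands of the canonical branch, had 0 counts in every library, which allows up to 3 counts in each.

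**Figure D1:**
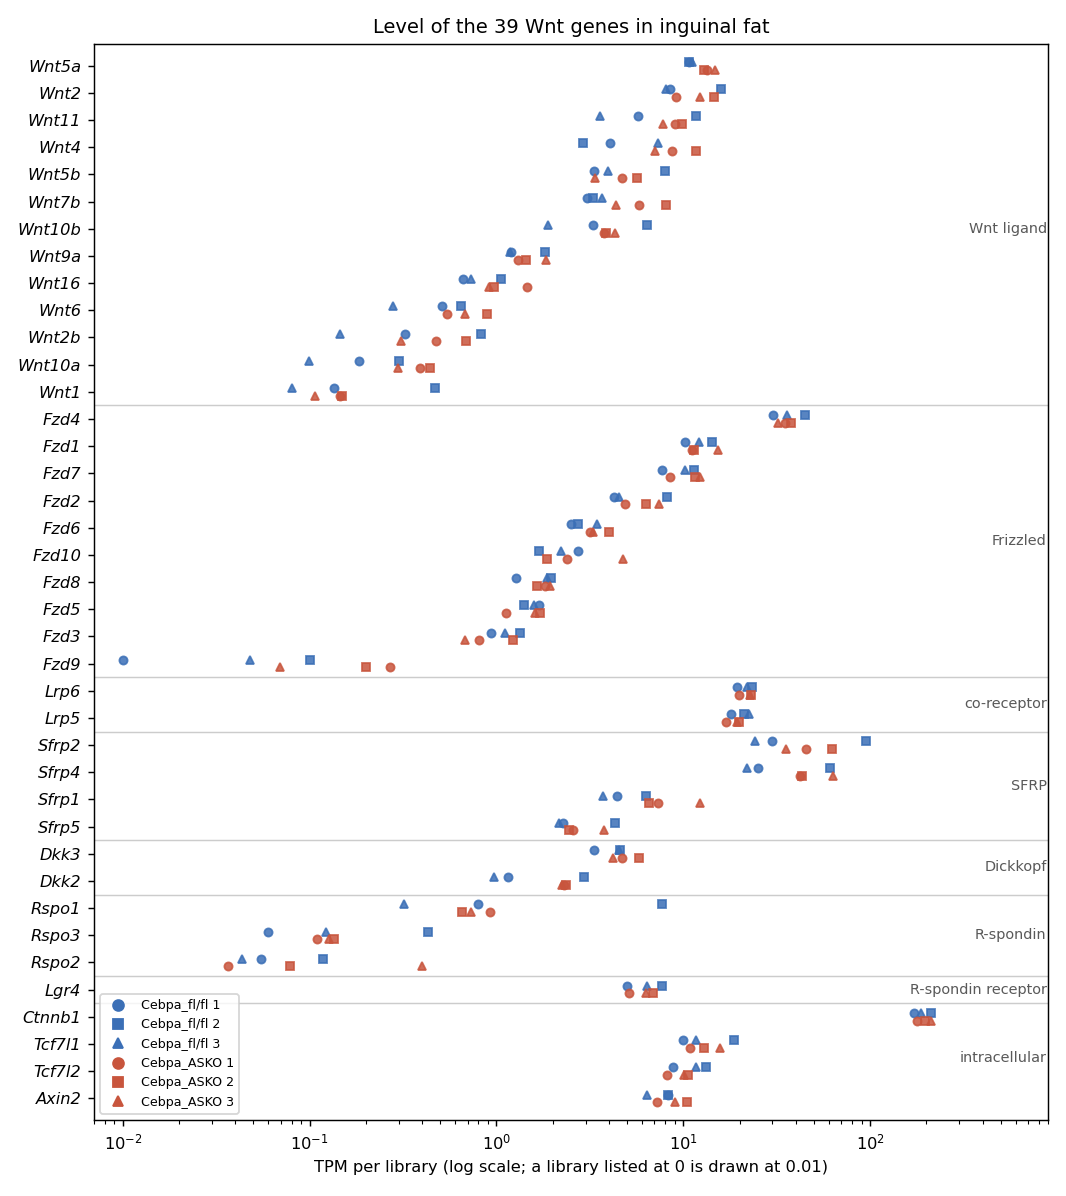
TPM of the 39 Wnt genes in each library on a log axis, grouped by role, with Cebpa_fl/fl libraries in blue and Cebpa_ASKO libraries in red. Points of the 2 genotypes mix for nearly all genes, and the square of Cebpa_fl/fl 2 lies at the right end for many of them, such as *Rspo1* at 7.73 TPM.

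None of these genes differed between Cebpa_ASKO and Cebpa_fl/fl past the threshold of the main test. Of the 39 genes 37 had enough counts to be tested, all but *Fzd9* and *Rspo2*, and 0 of the 37 had an adjusted p below 0.05 in edgeR's quasi-likelihood test, where 840 of all 16069 genes tested, or 5.23%, were called. At an unadjusted p below 0.05 there were 3, *Wnt7b*, *Sfrp1* and *Wnt4*, or 8.11% against 19.8% of all genes. DESeq2 called 1 gene, *Wnt7b*, where it called 10.7% of all genes, and limma on TPM called 0. With 1 library left out edgeR called *Sfrp4* without Cebpa_fl/fl 2, *Wnt7b* without Cebpa_ASKO 3 and 0 genes in the other 4 fits. In 2 genes, *Wnt7b* and *Sfrp1*, the 3 Cebpa_ASKO libraries lay apart from the 3 controls, or 5.41% against 26.1% of all genes.

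The fitted differences were spread around no change. Log2 fold changes (Cebpa_ASKO over Cebpa_fl/fl) were positive for 19 and negative for 18 of the 37 genes, with a median of 0.04 against 0.02 over all genes tested. Their median size was 0.15 on the log2 scale, against 0.19 for all genes. A missed call does not show equal expression, and the intervals, which are not adjusted for the number of genes, give what the data allow. The 95% interval lay within 0.5 log2 units of no change for 10 genes (27.0%, against 38.2% of all genes) and within 1 log2 unit, which is 2-fold, for 23 genes (62.2% against 68.2%). The median standard error was 0.24 for these genes and 0.17 for all genes.

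**Figure D2:**
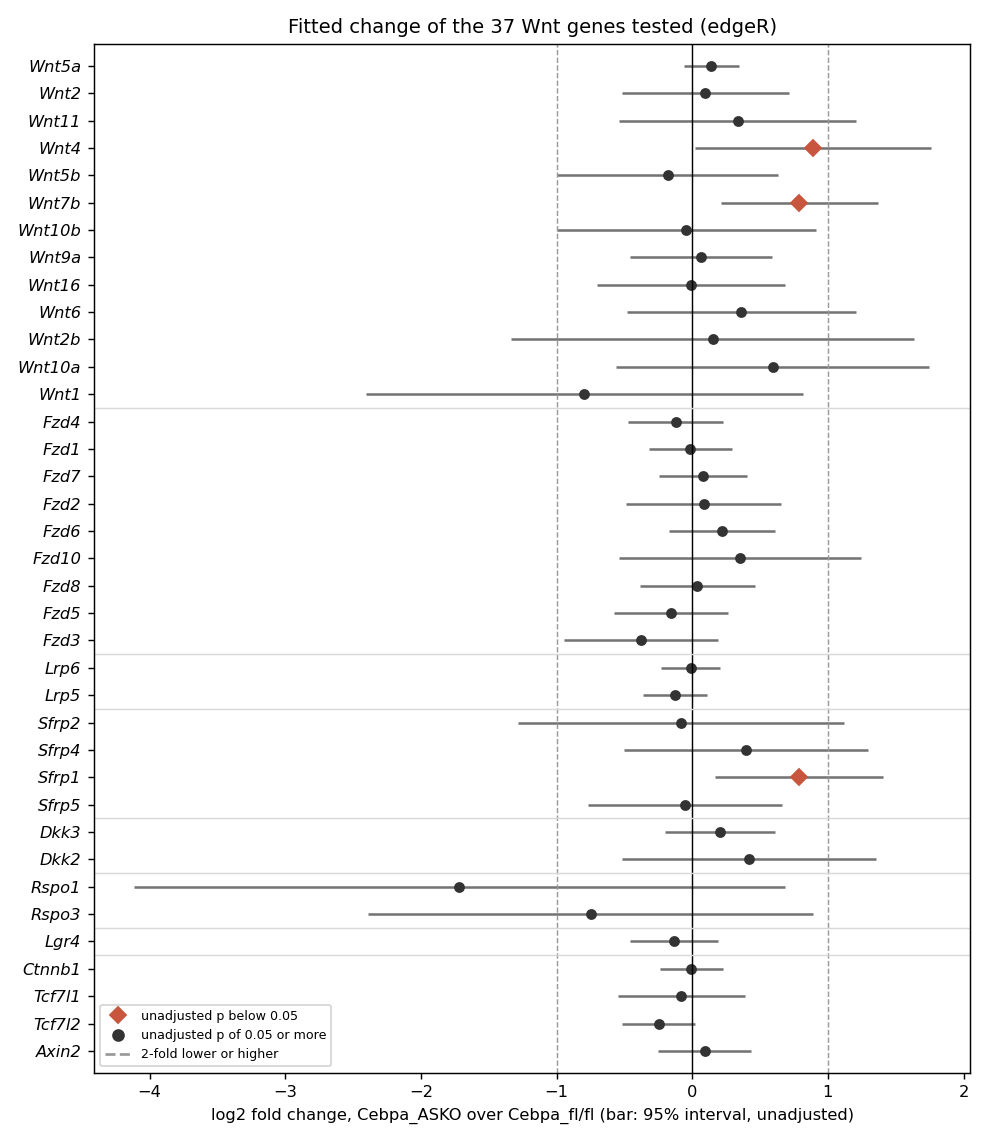
Log2 fold change of each of the 37 tested Wnt genes (points) with its unadjusted 95% interval (bars), in edgeR's fit, with dashed lines at 2-fold. The intervals of *Wnt4*, *Wnt7b* and *Sfrp1* lie above 0, those of all other genes include it, and the widest are those of *Rspo1* and *Rspo3*. The interval of the abundant *Sfrp2* is also wide, from -1.28 to 1.12.

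*Wnt7b*, which encodes a ligand known from epithelia, had the lowest unadjusted p of the 37 genes. It lies on chromosome 15 of GRCm38 from 85535437 to 85582473. Controls had 8.40, 7.93 and 9.41 CPM of *Wnt7b*, and Cebpa_ASKO had 15.8, 19.0 and 9.81 CPM. Cebpa_ASKO 3 was only just above the highest control, and the other Cebpa_ASKO libraries were well above it. The log2 fold change was 0.79 (standard error, SE, 0.24, 95% interval 0.21 to 1.37, adjusted p = 0.134), or 1.73-fold (1.16 to 2.58). In DESeq2 the adjusted p was 0.0370, and in edgeR without Cebpa_ASKO 3 the log2 fold change was 1.00 (adjusted p = 0.0246). Of its transcripts, Wnt7b-202 was 1.95 ± 0.147 TPM in controls and 3.66 ± 0.588 TPM in Cebpa_ASKO, and Wnt7b-201 was 1.32 ± 0.313 and 2.25 ± 1.32 TPM (SD, n = 3 each).

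*Wnt4*, another ligand known from the mammary gland, was singled out after its values were seen, as were *Wnt5a*, *Rspo1* and the further genes of the roles that are not given in every library. *Wnt4* was 14.7, 9.30 and 24.6 CPM in controls and 31.3, 36.9 and 21.7 CPM in Cebpa_ASKO. The genotypes overlapped, since Cebpa_fl/fl 3 was above Cebpa_ASKO 3. The log2 fold change was 0.89 (SE 0.36, 95% interval 0.02 to 1.76, adjusted p = 0.244).

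Markers of mammary epithelium, which lies within the inguinal fat of female mice, are given beside these ligands. The 14 markers, none of them at 0 in any library, summed to 1149, 847 and 1802 TPM in controls and to 2184, 2426 and 2622 TPM in Cebpa_ASKO. Log2 fold changes of 12 of the 14 were positive with a median over the list of 0.64, but edgeR called 0 higher and 1, *Esr1*, was called lower (5.23% of all genes were called). Among controls Cebpa_fl/fl 3 had the highest marker sum and the highest *Wnt4* and *Wnt7b*. Among Cebpa_ASKO libraries Cebpa_ASKO 3 had the highest marker sum and the lowest *Wnt4* and *Wnt7b*. Mammary markers were not the only list that lay apart, since skeletal muscle and Schwann cell and nerve markers did so as well. Muscle markers summed to 455, 769 and 526 TPM in controls and to 2071, 4593 and 1645 TPM in Cebpa_ASKO. Among Cebpa_ASKO libraries this was the order of *Wnt4* and *Wnt7b*. Among controls Cebpa_fl/fl 2 had the highest muscle sum and the lowest *Wnt4* and *Wnt7b*. The part of any of these markers in the values of *Wnt4* and *Wnt7b* was not tested.

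Of the 13 ligands *Wnt5a* was the most abundant, at 12.3 TPM, followed by *Wnt2* at 11.4, *Wnt11* at 7.94, *Wnt4* at 6.97 and *Wnt5b* at 4.84 TPM. *Wnt5a*, the best known ligand of the non-canonical branch, varied little between mice, at 41.8, 40.4 and 42.3 CPM in controls and 49.3, 42.0 and 45.8 CPM in Cebpa_ASKO. Its log2 fold change was 0.14 (95% interval -0.06 to 0.34, adjusted p = 0.438). In CPM the genotypes overlapped, while in TPM the controls lay between 10.7 and 11.1 and the Cebpa_ASKO libraries between 12.9 and 14.9 without overlap, and no setting called it. *Wnt10b*, a ligand known for holding precursors back from becoming adipocytes, was 3.28, 6.41 and 1.88 TPM in controls and 3.76, 3.83 and 4.33 TPM in Cebpa_ASKO, so that the controls spanned the Cebpa_ASKO libraries. *Wnt11* behaved alike, at 7.0 ± 4.20 TPM in controls and 8.88 ± 1.04 TPM in Cebpa_ASKO (SD, n = 3 each). The remaining ligands *Wnt9a*, *Wnt16*, *Wnt6*, *Wnt2b*, *Wnt10a* and *Wnt1* had means between 0.181 and 1.46 TPM. All 13 ligands were tested, 9 with positive and 4 with negative log2 fold changes and a median of 0.14. Their summed level was 41.6, 64.0 and 42.1 TPM in controls and 58.9, 71.2 and 58.2 TPM in Cebpa_ASKO, with Cebpa_fl/fl 2 inside the range of the Cebpa_ASKO libraries.

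No Frizzled receptor was called by edgeR or DESeq2, and none had an unadjusted p below 0.05 in either. *Fzd4*, the most abundant receptor, was 177, 236 and 196 CPM in controls and 205, 193 and 161 CPM in Cebpa_ASKO. The genotypes overlapped, and the log2 fold change was -0.12 (95% interval -0.47 to 0.23, adjusted p = 0.730). *Fzd1*, whose promoter window holds a C/EBP match, was 12.2 ± 1.98 TPM in controls and 12.6 ± 2.32 TPM in Cebpa_ASKO (SD, n = 3 each). *Fzd7* was 9.74 ± 1.89 and 10.7 ± 2.02 TPM, and *Fzd2* was 5.64 ± 2.21 and 6.21 ± 1.28 TPM (SD, n = 3 each). *Fzd6*, *Fzd10*, *Fzd8*, *Fzd5*, *Fzd3* and *Fzd9* had means between 0.114 and 3.18 TPM. Of 9 receptors tested, 5 had positive and 4 negative log2 fold changes, from -0.38 for *Fzd3* to 0.35 for *Fzd10*, and for all but *Fzd10* the 95% interval excluded a 2-fold change. *Fzd9* had 0 to 16 counts in a library and was not tested. The 10 receptors summed to 74.0 ± 13.4 TPM in controls and 75.4 ± 5.57 TPM in Cebpa_ASKO (SD, n = 3 each).

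The co-receptors varied little between mice. *Lrp6* was 122, 138 and 140 CPM in controls and 133, 136 and 128 CPM in Cebpa_ASKO, with a log2 fold change of -0.01 (95% interval -0.23 to 0.20, adjusted p = 0.965). *Lrp5* was 66.3, 69.6 and 81.2 CPM in controls and 64.3, 68.8 and 65.6 CPM in Cebpa_ASKO, with a log2 fold change of -0.13 (95% interval -0.36 to 0.11, adjusted p = 0.548). In both genes the Cebpa_ASKO libraries overlapped the controls. Within *Lrp5* the coding transcript Lrp5-201 was 12.2 ± 2.27 TPM in controls and 12.3 ± 1.65 TPM in Cebpa_ASKO (SD, n = 3 each). Lrp5-203, annotated as subject to nonsense-mediated decay, was 7.46, 8.42 and 7.21 TPM in controls and 5.91, 5.36 and 5.69 TPM in Cebpa_ASKO, without overlap. As a share of *Lrp5* TPM it overlapped between genotypes, at 32.22% to 41.46% in controls and 27.12% to 34.96% in Cebpa_ASKO. Lrp5-203 was not alone in lying apart in TPM, since transcripts such as Wnt5a-206, Fzd6-202, Wnt7b-202, Wnt11-202 and Wnt16-203 did so as well. As a share of its gene, Wnt5a-206 also lay apart, at 3.72% to 5.08% in controls and 5.72% to 7.54% in Cebpa_ASKO. So did the scarce Wnt16-203, which was 0 TPM in every control and 0.525, 0.149 and 0.0665 TPM in Cebpa_ASKO. These transcript values and shares were not tested, and kallisto divides reads that fit several transcripts.

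Secreted inhibitors differed widely between mice of the same genotype. *Sfrp1*, on chromosome 8 from 23411502 to 23449632, was 16.6, 21.3 and 13.1 CPM in controls and 27.4, 21.6 and 39.1 CPM in Cebpa_ASKO. The genotypes did not overlap, but Cebpa_ASKO 2 was barely above Cebpa_fl/fl 2. Its log2 fold change was 0.79 (SE 0.26, 95% interval 0.17 to 1.41, adjusted p = 0.159), and without 1 library it lay between 0.51 and 0.97 and was never called. *Sfrp2*, the most abundant of the inhibitors, was 48.3, 137 and 36.7 CPM in controls and 73.4, 87.8 and 48.3 CPM in Cebpa_ASKO. Cebpa_fl/fl 2 was the highest of all and the other controls were among the lowest, so that the interval ran from -1.28 to 1.12 around a log2 fold change of -0.08 (adjusted p = 0.953). *Sfrp2* thus allowed changes of more than 2-fold in either direction, and without Cebpa_fl/fl 2 its log2 fold change was 0.70 (adjusted p = 0.199). *Sfrp4* was 35.4, 77.8 and 28.2 CPM in controls and 55.8, 54.7 and 75.2 CPM in Cebpa_ASKO, with a log2 fold change of 0.39 (95% interval -0.51 to 1.29, adjusted p = 0.646). The order of the controls was that of *Sfrp2*, and without Cebpa_fl/fl 2 *Sfrp4* was called at a log2 fold change of 0.95 (edgeR, adjusted p = 0.0459). *Sfrp5*, an SFRP known from adipocytes, was 2.92 ± 1.21 TPM in controls and 2.92 ± 0.717 TPM in Cebpa_ASKO (SD, n = 3 each).

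Of the Dickkopfs, *Dkk3* was 4.13 ± 0.702 TPM in controls and 4.92 ± 0.816 TPM in Cebpa_ASKO, and *Dkk2* was 1.69 ± 1.08 and 2.30 ± 0.0553 TPM (SD, n = 3 each). Neither was called. The SFRPs and Dickkopfs summed to 66.1, 174 and 57.6 TPM in controls and to 105, 123 and 121 TPM in Cebpa_ASKO. The Cebpa_ASKO libraries thus lay between Cebpa_fl/fl 2 and the other controls.

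**Figure D3:**
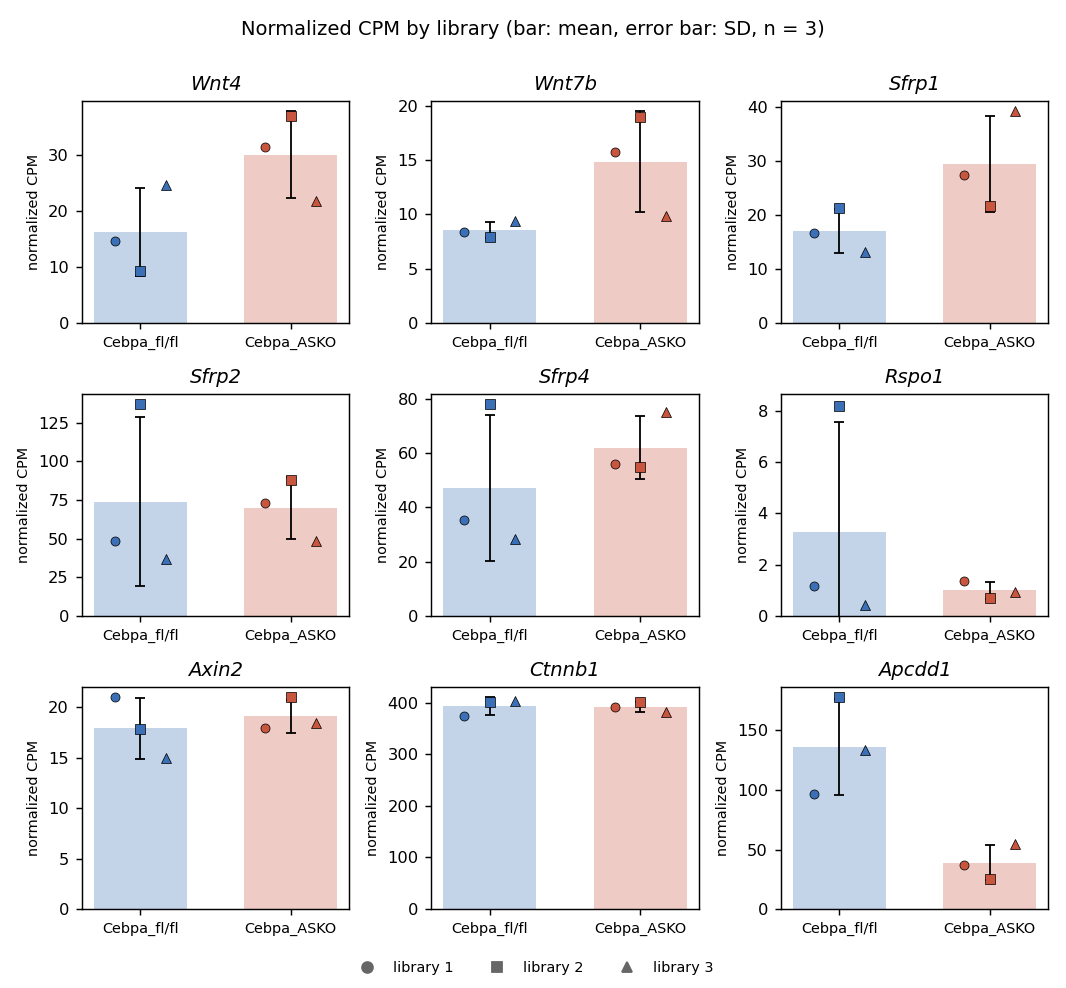
Normalized CPM of 9 genes in each library (points), with the mean (bar) and SD (error bar, n = 3, drawn from 0 upward), Cebpa_fl/fl in blue and Cebpa_ASKO in red. *Wnt7b* and *Sfrp1* do not overlap between genotypes but come close. In *Sfrp2* and *Rspo1* the square of Cebpa_fl/fl 2 stands apart from all other points. In *Sfrp4* that square stands apart from the other controls but lies close to Cebpa_ASKO 3. *Axin2* and *Ctnnb1* are level, and *Apcdd1* is 97.0 CPM or more in controls and 54.3 CPM or less in Cebpa_ASKO.

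R-spondins were scarce. *Rspo1* was 1.18, 8.2 and 0.445 CPM in controls and 1.36, 0.715 and 0.920 CPM in Cebpa_ASKO. Its log2 fold change of -1.72, the furthest from 0 among the 37 genes, had a standard error of 1.01 (95% interval -4.12 to 0.68, adjusted p = 0.417) and rested on Cebpa_fl/fl 2, without which it was 0.28 (adjusted p = 0.816). *Rspo3* had 7 to 47 counts in a library and *Rspo2* had 3 to 40, and *Rspo2* was not tested. *Lgr4*, the R-spondin receptor whose promoter window holds a C/EBP match, was 6.36 ± 1.37 TPM in controls and 6.12 ± 0.899 TPM in Cebpa_ASKO (SD, n = 3 each).

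The same control library led most of the set. Cebpa_fl/fl 2 was the highest of the 3 controls for 26 of the 37 tested genes, or 70.3%, against 37% of all genes tested, and the highest of all 6 libraries for 20 of them, or 54.1% against 20.4%. It was also the highest control for all 12 fibroblast and progenitor markers and all 8 macrophage markers, whose sums were 1545, 3177 and 1096 TPM in controls and between 1712 and 2766 TPM in Cebpa_ASKO. Of these markers edgeR called 0 in either list, where 5.23% of all genes were. Without Cebpa_fl/fl 2 the median log2 fold change of the Wnt genes was 0.22, with 1 gene called, and the median of all genes was 0.02. How far fibroblast and macrophage content sets these Wnt levels was not tested.

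**Figure D4:**
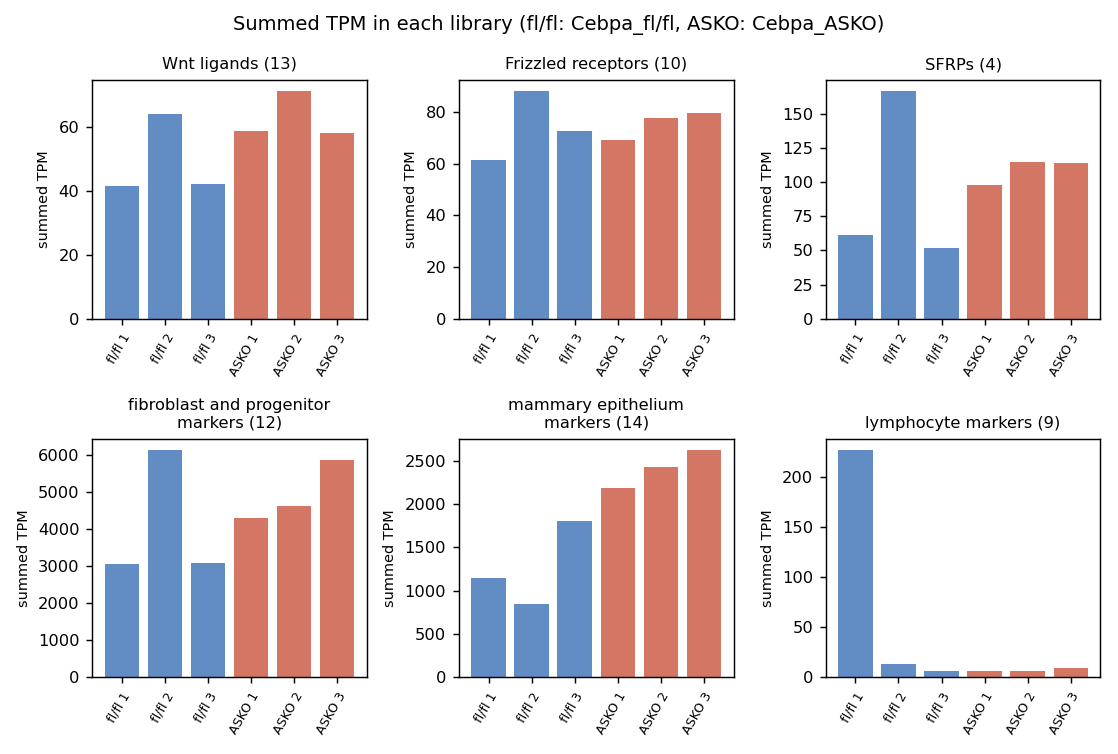
Summed TPM in each library of the Wnt ligands, Frizzled receptors and SFRPs and of 3 marker lists, with the number of genes in parentheses. The bar of Cebpa_fl/fl 2 is the highest for the SFRPs (166 TPM) and for fibroblast and progenitor markers (6134 TPM), mammary markers lie above every control in each Cebpa_ASKO library, and lymphocyte markers are high in Cebpa_fl/fl 1 alone (227 TPM).

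None of the 4 intracellular factors was called by edgeR or DESeq2, and none had an unadjusted p below 0.05 in either. *Ctnnb1*, on chromosome 9 from 120929216 to 120960507, was 373, 402 and 404 CPM in controls and 391, 401 and 382 CPM in Cebpa_ASKO. Its log2 fold change was -0.01 (95% interval -0.24 to 0.23, adjusted p = 0.980), which leaves room for a level of 0.846 to 1.17 times the control. As β-catenin is regulated by protein stability, its RNA is no measure of pathway activity. *Axin2*, the target gene that most often serves as a readout of canonical signalling, was 21, 17.9 and 15.0 CPM in controls and 17.9, 21 and 18.4 CPM in Cebpa_ASKO. The libraries interleaved, and the log2 fold change was 0.09 (95% interval -0.25 to 0.44, adjusted p = 0.80). *Tcf7l2*, a β-catenin partner expressed in adipocytes, was 24.9, 32.6 and 29.4 CPM in controls and 23.2, 25.1 and 24.8 CPM in Cebpa_ASKO. Of the 4 factors it came nearest to a difference, at a log2 fold change of -0.25 (95% interval -0.52 to 0.02, adjusted p = 0.294), with the lowest control inside the range of Cebpa_ASKO. *Tcf7l1*, a partner that mostly represses, was 23.4, 38.7 and 25.9 CPM in controls and 26.2, 26.4 and 30.5 CPM in Cebpa_ASKO, and its log2 fold change was -0.08 (95% interval -0.55 to 0.39, adjusted p = 0.880).

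Of 80 further Wnt pathway genes on a list, 77 had counts and 72 were tested. edgeR called 2 of the 72, 1 in each direction, against 5.23% of all genes, and 14 had an unadjusted p below 0.05, or 19.4% against 19.8% of all genes. It called 0 without Cebpa_ASKO 1, Cebpa_ASKO 2 or Cebpa_fl/fl 3, 1 without Cebpa_ASKO 3 and 4 without Cebpa_fl/fl 2. *Apcdd1*, which encodes a membrane-bound Wnt inhibitor that is itself a reported Wnt target, fell from 97.0, 178 and 133 CPM in controls to 36.8, 25.4 and 54.3 CPM in Cebpa_ASKO. Every Cebpa_ASKO library was below every control, and the log2 fold change was -1.81 (SE 0.33, adjusted p = 0.0294). Without Cebpa_ASKO 1, Cebpa_ASKO 2 or Cebpa_fl/fl 3 the call was lost, at log2 fold changes of -1.77, -1.59 and -1.82. *Myc*, a growth regulator that many pathways besides Wnt control, rose from 25.8, 26.2 and 23.1 CPM to 33.9, 35.9 and 32.8 CPM, a log2 fold change of 0.45 (SE 0.09, adjusted p = 0.0344). Its call was lost without any 1 library other than Cebpa_fl/fl 2, with log2 fold changes between 0.40 and 0.47.

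The lists of these genes by role share some genes, so they are not independent. By role, the 22 dishevelled and destruction complex genes had a median log2 fold change of 0.11 and 0 calls in edgeR and in DESeq2 (3 and 2 at an unadjusted p below 0.05, the 3 in edgeR being 13.6% against 19.8% of all genes). The 15 nuclear factors had a median of -0.05 and 0 calls by either tool (2 by each unadjusted, in edgeR 13.3%). Of 14 reported target genes edgeR called 2, *Apcdd1* and *Myc*, against 5.23% of all genes, and DESeq2 called 3, against 10.7%. At an unadjusted p below 0.05 in edgeR there were 6 of the 14, or 42.9% against 19.8% of all genes, with 10 of the 14 log2 fold changes positive and a median of 0.20. The 14 include *Lef1* and *Tcf7*, which are also among the nuclear factors. The log2 fold change of *Lef1* was -3.34, and -0.36 without Cebpa_fl/fl 1. DESeq2 called 6 of the further genes, against 10.7% of all genes, adding *Ccnd1*, *Gpc4*, *Lgr6* and *Porcn*, which are named for that reason after their values were seen. *Lgr6*, an R-spondin receptor, was 10.6, 16.6 and 12 CPM in controls and 22.6, 27.6 and 20.4 CPM in Cebpa_ASKO, a log2 fold change of 0.85 (adjusted p = 0.0623 in edgeR and 0.00295 in DESeq2). *Porcn*, which encodes the enzyme that adds the lipid to Wnt ligands, was 10.2 to 11.7 CPM in controls and 13.2 to 19.6 CPM in Cebpa_ASKO. *Gpc4*, a glypican, was 29.2 to 41.9 CPM in controls and 24.3 to 26.8 CPM in Cebpa_ASKO. *Ccnd1*, the gene of cyclin D1, was 80.4, 119 and 86.0 CPM in controls and 197, 158 and 116 CPM in Cebpa_ASKO, with Cebpa_ASKO 3 below Cebpa_fl/fl 2.

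The TCF/LEF genes that mark T cells followed the lymphocyte library. *Lef1* was 11.1 CPM in Cebpa_fl/fl 1 and between 0.255 and 0.615 CPM in the other libraries. Its log2 fold change of -3.34 (adjusted p = 0.229) was -0.36 without Cebpa_fl/fl 1. *Tcf7* moved likewise, from a log2 fold change of -2.01 to -0.27 without that library. The part of lymphocytes in these values was not tested.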

How the data were processed

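For each library the authors deposited an estimated count and a TPM value for every transcript, made with kallisto (0.44.0 in the submitters' processing notes), and a table of TPM summed by gene symbol. The paper names DESeq2, and the transcript annotation is not given in the sources used here. GENCODE M21 (GRCm38) held 116816 of the 118489 transcripts, and estimated counts were summed by symbol and rounded. TPM was also summed from the transcripts, because the authors' table holds 2 times the sum for *Fzd6* and 270 symbols in all. That table chose the members. Counts were tested with edgeR 4.0.16 in R 4.3.3 (TMM, default filter with a minimum count of 10, quasi-likelihood test, Benjamini-Hochberg adjustment over 16069 genes, called below 0.05), and CPM is TMM-normalized. Total estimated counts of 33141769 to 49477671 set the precision, and replicates differed by more than counting error (ratio of chi-square to its degrees of freedom 27.6 to 239). Alternatives used DESeq2 1.42.0 and limma 3.58.1. The procedure was tested on simulated data. Values in every library were given for members called by edgeR or DESeq2, members without overlap that differed by 0.5 log2 units or more, the 5 most abundant members, *Axin2*, *Ctnnb1*, *Tcf7l1*, *Tcf7l2*, *Lrp5* and *Lrp6*, and for further pathway genes called by edgeR. Members and lists were chosen with earlier results of these data known. Figures used matplotlib 3.10.9.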

Additional observations from a re-analysis of the deposited data

How the results depend on the processing

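Over 15 alternatives the number of Wnt genes called stayed at 0 or 1. It was 1 with DESeq2 (*Wnt7b*), and 0 to 1 with 1 library left out, in each case a higher gene, *Sfrp4* without Cebpa_fl/fl 2 and *Wnt7b* without Cebpa_ASKO 3. With 1 library left out the median log2 fold change of the Wnt genes was -0.0311 to 0.218. It was 0.0816 with scaling by total counts, where the median of all genes was 0.0727 against 0.0247 in the reported fit, and 0.0812 with the replicate block, and 0.135, 0.160 and 0.186 with limma on log2(TPM + 1), on log2(TPM + 0.1) and on the latter without a filter, where the median of all genes was 0.07 to 0.09. The replicate block, which pairs libraries of the same number, called 0 of the Wnt genes and 0 of the further pathway genes. Deviations of same-numbered libraries from the mean of their genotype correlated at 0.07, 0.03 and -0.20. With means of 3 libraries, such values cannot settle whether the numbers pair the mice. Calls among the further pathway genes were 6 with DESeq2, 1, 1 and 0 with the same limma fits, and 0 to 4 with 1 library left out. Near-zero log2 fold changes turned sign. *Ctnnb1* was 0.0415 with total scaling and 0.0293, 0.0294 and 0.0294 with the limma fits, and *Lrp6* was 0.0360 and then 0.0204, 0.0213 and 0.0213. *Sfrp2* was 0.12 with the replicate block and 0.18, 0.19 and 0.19 with the limma fits, and *Tcf7l1* was 0.0026, 0.0049 and 0.0049 with them. With 1 library left out *Ctnnb1* ranged from -0.0437 to 0.0129, *Sfrp2* from -0.41 to 0.70, *Lrp6* from -0.0733 to 0.0247, *Axin2* from -0.0232 to 0.22, *Tcf7l1* from -0.22 to 0.16, *Rspo1* from -2.24 to 0.28 and *Fzd10* from -0.0951 to 0.60. The causes were not tested. *Apcdd1* was called in 11 and *Myc* in 7 of 16 settings.

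With 3 libraries a genotype the exact permutation test of a single gene cannot go below p = 0.1. *Rspo3*, *Wnt1*, *Wnt6* and *Wnt10a* had fewer than 50 counts in every library, and *Fzd9* and *Rspo2* too few to test.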

Other observations

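The transcripts of several Wnt genes were divided unevenly between libraries. *Wnt9a* has 2 measured transcripts, and kallisto gave Wnt9a-201 0.564 ± 0.593 TPM in controls and 0.303 ± 0.524 TPM in Cebpa_ASKO (SD, n = 3 each), with single libraries at 0. Wnt11-202, annotated as subject to nonsense-mediated decay, was 1.54, 1.87 and 1.31 TPM in controls and 2.46, 2.68 and 2.84 TPM in Cebpa_ASKO, without overlap, while Wnt11-205, a coding transcript, was 2.87 ± 1.90 and 3.41 ± 0.886 TPM (SD, n = 3 each). As a share of *Wnt11* TPM, Wnt11-202 overlapped between genotypes, at 16.0% to 36.5% in controls and 27.2% to 36.5% in Cebpa_ASKO. In *Ctnnb1* the retained-intron transcript Ctnnb1-215 took between 29.1% and 37.2% of the TPM in controls and between 29.5% and 36.2% in Cebpa_ASKO. Tcf7l2-209 took between 66.6% and 71.6% of *Tcf7l2* in controls and between 65.9% and 71.6% in Cebpa_ASKO. These transcript levels and shares were not tested.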
